A study of Taeniopygia guttata with 46 samples.

Results

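Transcript levels in the posterior telencephalon were compared between zebra finches kept for 5 h at an air temperature of 27 °C and birds kept for 5 h at 35 °C. The comparison took the 8 telencephalon libraries of each temperature, 16 of the 46 libraries of the series, each from a different bird. All birds were adult male zebra finches (Taeniopygia guttata), and the labels record no genotype, strain, drug or other manipulation in either group. The labels place 27 °C below and 35 °C within the thermoneutral zone. The other libraries came from the telencephalon of 8 birds at 43 °C, above that zone, and from the testis of 22 of the 24 birds. Brains were frozen and macrodissected, so a library holds the RNA of all cell types of the dissected region, and fewer cells of a type cannot be told apart from less RNA per cell. The labels give the air temperature, and body or brain temperature was not analysed here.

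The thermoneutral zone is the range of air temperatures in which a resting bird or mammal keeps its body temperature without spending extra energy. Below it, heat production rises, mainly through shivering in birds, and the brain is kept close to its usual temperature. The posterior telencephalon is the rear part of the forebrain, which in songbirds includes regions that serve hearing and song. The comparison asks how far brain transcripts hold their levels when the surrounding air is below that zone.

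The tables name genes by Ensembl identifier, none of the 18618 identifiers could be paired with a symbol, and genes are given here by identifier without a function. Markers of cell types could not be looked up for the same reason. Each of the 16 libraries had an r across genes of 0.990 or more with the mean telencephalon profile and of 0.522 or less with that of the testis. Total counts ran from 10.2 M to 16.9 M. Means were 13.3 ± 2.03 M at 27 °C and 12.2 ± 1.54 M at 35 °C (SD, n = 8 each), with an exact two-sided permutation p of 0.230 (0.557 adjusted over 3 tests of library properties). The libraries held counts for 15330 ± 128 genes at 27 °C and 15288 ± 115 genes at 35 °C (SD, n = 8 each; exact permutation p = 0.499).

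No gene differed between 27 and 35 °C past the threshold. Of 13254 genes tested in edgeR, 0% had a Benjamini-Hochberg adjusted p under 0.05, and the smallest adjusted p was 0.9999. Before adjustment, 448 genes had a p under 0.05, 3.38% of those tested, of which 220 (1.66%) were higher and 228 (1.72%) lower at 27 °C. DESeq2 and limma voom with quality weights also called no gene. Before adjustment, DESeq2, run without the filter, gave a p under 0.05 for 537 of 16995 genes. The limma voom fit gave 498 of 13254 genes.

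Measured differences were small in most genes. Levels are given in CPM, counts scaled to library size with TMM factors, and differences as log2 fold changes of 27 against 35 °C. These levels are relative to the library, so a change in RNA amount shared by most genes would not show in them. Among the 8884 genes averaging 10 CPM or more, which held 98.1 to 98.3% of the counts of a library, the median absolute log2 fold change was 0.047, a 1.03-fold difference. For 90 in 100 of these genes it was at most 0.15 (1.11-fold), and for 99 in 100 at most 0.33 (1.26-fold). The 95% interval of the log2 fold change reached a median of 0.16 to either side of the estimate, a factor of 1.12. It lay within a 1.2-fold change in either direction for 5897 genes (66.4%), within 1.5-fold for 8590 (96.7%) and within 2-fold for 8840 (99.5%). For these genes a difference above the stated fold lay outside the interval. For the remaining 294 genes a 1.5-fold difference could not be bounded at this spread and depth. Each interval is that of a single gene, without adjustment for the number of genes, so the bounds need not hold for all these genes at once.

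Genes were bounded more tightly the higher their level, up to the level from 100 to 300 CPM. Under 1 CPM the interval lay within 1.5-fold for 3.57% of 420 genes, from 1 to 3 CPM for 29.3% of 1629 genes and from 3 to 10 CPM for 73.9% of 2321 genes. From 10 to 30 CPM the share was 92.7% of 3095 genes, from 30 to 100 CPM 98.6% of 3601 genes, from 100 to 300 CPM 99.3% of 1721 genes and from 300 CPM up 98.9% of 467 genes. The stricter 1.2-fold bound held for no gene under 3 CPM, for 39.0% of genes from 10 to 30 CPM and for 90.8% from 100 to 300 CPM. Measured differences narrowed along the same scale, from a median absolute log2 fold change of 0.23 under 1 CPM to 0.069 from 10 to 30 CPM and 0.031 from 300 CPM up.

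**Figure D1:**
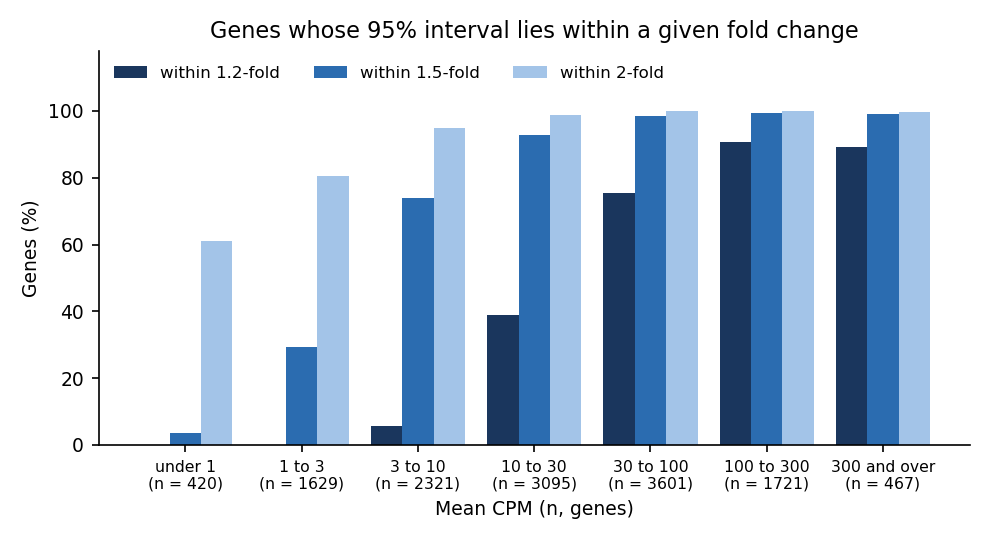
Share of genes (%) whose 95% interval of the fold change between 27 and 35 °C lies within 1.2-fold, 1.5-fold or 2-fold, by mean CPM over the 16 libraries. The share within 1.5-fold climbs from 3.57% under 1 CPM to 92.7% from 10 to 30 CPM and 99.3% from 100 to 300 CPM.

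**Figure D2:**
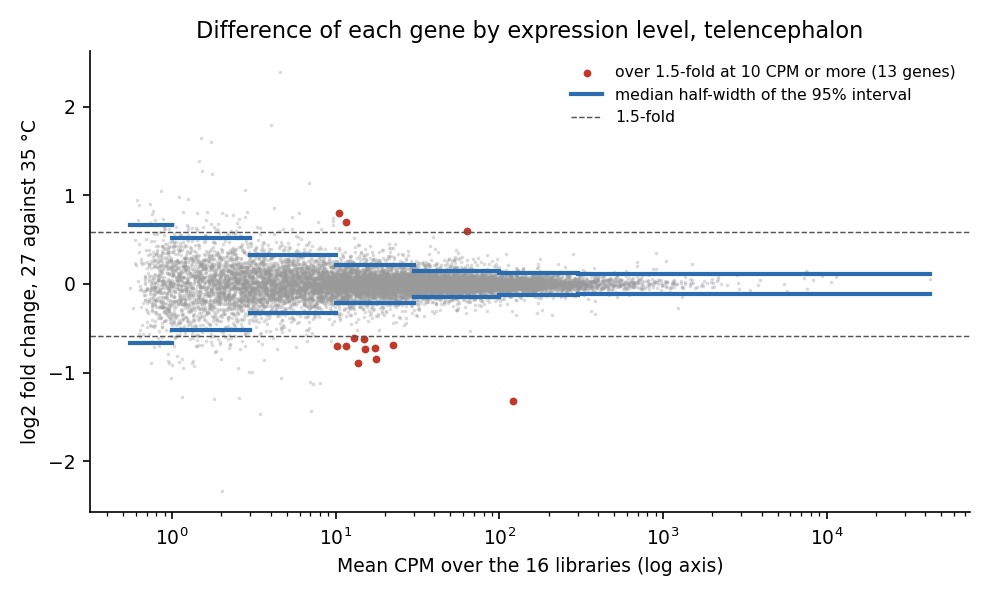
Log2 fold change of each of 13254 genes (27 against 35 °C) against mean CPM on a log axis, with the median distance from the estimate to the end of its 95% interval in each level of expression (blue) and the 13 genes of at least 10 CPM measured beyond 1.5-fold (red). The cloud narrows with level, and 11 of the 13 genes lie from 10 to 30 CPM.

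The genes bounded most tightly show what steadiness amounted to in single birds. ENSTGUG00000008285 ranged from 173 to 194 CPM at 27 °C with a median of 178, and from 172 to 183 CPM at 35 °C with a median of 180.03. The ranges coincided apart from bird T142, the highest, and the interval of the fold change reached no further than 1.05-fold. ENSTGUG00000006657 ran from 433 to 475 CPM at 27 °C (median 455) and from 446 to 479.6 CPM at 35 °C (median 456). ENSTGUG00000007090, at a higher level, ran from 1400.4 to 1534 CPM at 27 °C (median 1445) and from 1344 to 1574 CPM at 35 °C (median 1450.2). The 8 birds of each temperature overlapped almost wholly in each of these genes. The other 3 of the 6 most tightly bounded genes, ENSTGUG00000003048, ENSTGUG00000002138 and ENSTGUG00000009042, had means of 204, 114 and 91.8 CPM. The 6 were chosen for their intervals, so their steadiness is a description. Tight bounds also occurred lower on the scale: from 10 to 30 CPM the tightest was ENSTGUG00000004015, with 26.8 ± 1.14 CPM at 27 °C and 26.8 ± 1.595 CPM at 35 °C (SD, n = 8 each) and an interval reaching 1.07-fold.

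The most abundant transcripts differed little between temperatures and by varying amounts between birds. Of the 10 genes with the highest mean CPM, all 10 had an interval within 1.5-fold and 4 within 1.2-fold. Their absolute log2 fold changes were 0.027 to 0.14. Among all 467 genes of 300 CPM and over, 98.9% had an interval within 1.5-fold and 89.1% within 1.2-fold. The median absolute log2 fold change of those 467 genes was 0.031, so the 10 were bounded less tightly than most genes of that level. The most abundant, ENSTGUG00000018747, ran from 34322 to 56639 CPM at 27 °C (median 41126) and from 34276 to 48906 CPM at 35 °C (median 42278). ENSTGUG00000002581 was held far more closely, from 7642 to 8887 CPM at 27 °C (median 8250.3) and from 7839 to 8589 CPM at 35 °C (median 8071). In 8 of the 10 genes the highest value of the 16 birds came from the same library, bird T148 at 27 °C. Together these 8 genes made up 15.9% of the CPM of T148. Their share was 11.2 ± 2.24% at 27 °C and 10.6 ± 1.07% at 35 °C (SD, n = 8 each; exact two-sided permutation p = 0.544). Without T148 the mean at 27 °C was 10.6 ± 1.301% (SD, n = 7). The standard deviation between birds was larger at 27 than at 35 °C in all 8, and still in 6 of them without T148. The 8 were picked for a peak in a bird at 27 °C, which favours a larger standard deviation there. Their identifiers lie close together, from ENSTGUG00000018735 to ENSTGUG00000018763, and they peak in the same library, so they do not count as 8 separate observations.

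The 16 genes ranked first by p, 8 per direction, had absolute log2 fold changes of 0.15 to 1.06, and none of them passed the adjusted threshold. Of the 16, 9 lay under 10 CPM. The smallest unadjusted edgeR p, 0.000183, belonged to ENSTGUG00000002222, which ran from 0.304 to 1.24 CPM at 27 °C (median 0.574) and from 1.01 to 1.78 CPM at 35 °C (median 1.25), with a log2 fold change of -1.06 ± 0.24 (SE). Its groups overlapped, and its level was near the lower end of the genes tested. ENSTGUG00000016000 ran from 8.17 to 12.2 CPM at 27 °C (median 9.97) and from 9.63 to 21.6 CPM at 35 °C (median 16.5), with a log2 fold change of -0.61 ± 0.15 (SE). ENSTGUG00000005288 lay the other way, from 4.29 to 9.002 CPM at 27 °C (median 7.04) and from 2.53 to 6.04 CPM at 35 °C (median 3.99), with a log2 fold change of 0.76 ± 0.19 (SE). The abundant gene of this set was ENSTGUG00000010001, from 306 to 342 CPM at 27 °C (median 331) and from 339 to 396 CPM at 35 °C (median 371). Its log2 fold change was -0.17 ± 0.042 (SE), a small difference next to narrow spreads, and its groups overlapped between 339 and 342 CPM.

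The testis of birds from the same temperatures was measured as well. Of the 16 genes, 4 had an unadjusted p under 0.05 there in edgeR, of which the smallest was 0.00667, beside 612 of all 14149 genes tested (4.33%). For ENSTGUG00000005288 the testis log2 fold change was 0.62. No testis gene was called at 27 against 35 °C (0%), and 7 of the birds at 27 °C and 8 at 35 °C are in both comparisons. One testis library at 27 °C, from T142, is labelled brain in its tissue field and testis in its title and source name. Without it 3 of the 16 genes had an unadjusted p under 0.05 in edgeR, the smallest 0.0210, beside 520 of 14241 genes (3.65%), and no gene was called.

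Complete separation of the birds was rare. In 4 of 13254 genes (0.0302%) all 8 values at one temperature lay outside all 8 at the other, and 3 of these had at least 10 CPM (0.0338% of 8884). All 3 were higher at 27 °C. ENSTGUG00000001456 ran from 105 to 117 CPM at 27 °C (median 110.3) and from 94.3 to 103 CPM at 35 °C (median 100.5), with a log2 fold change of 0.15 ± 0.042 (SE). ENSTGUG00000006958 ran from 57.0 to 63.5 CPM at 27 °C (median 58.5) and from 48.2 to 56.4 CPM at 35 °C (median 53.2), with a log2 fold change of 0.16 ± 0.061 (SE). ENSTGUG00000003311 ran from 31.2 to 39.0 CPM at 27 °C (median 32.9) and from 28.1 to 31.0 CPM at 35 °C (median 30.5), with a log2 fold change of 0.16 ± 0.064 (SE). In both of the last 2 genes the gap between the groups was under 1 CPM, and in ENSTGUG00000003311 bird T148 stood above the other 7. The fourth gene, ENSTGUG00000009996, lay at 0 to 0.922 CPM at 27 °C and at 0.939 to 3.09 CPM at 35 °C.

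Among genes of at least 10 CPM, the largest measured fold changes belonged to genes with wide spreads between birds. Over all 13254 genes, 162 (1.22%) were measured beyond 1.5-fold and 22 beyond 2-fold, the furthest 5.25-fold, in a gene from 3 to 10 CPM. Of the 8884 genes of at least 10 CPM, 13 were measured beyond 1.5-fold, 11 of them from 10 to 30 CPM, and 1 beyond 2-fold. That gene, ENSTGUG00000008881, ran from 7.75 to 140.1 CPM at 27 °C (median 61.3) and from 7.497 to 1055 CPM at 35 °C (median 64.6). Its log2 fold change of -1.32 ± 1.15 (SE) came with near-equal medians, and without bird T147, which held the 1055 CPM, it was 0.53. ENSTGUG00000008354 was likewise at 118.1 CPM in T147 and at 2.61 to 13.1 CPM in the other 7 birds at 35 °C, and its log2 fold change of -0.72 became 0.73 without that bird. ENSTGUG00000002459 ran from 0.593 to 15.3 CPM at 27 °C (median 11.1) and from 4.71 to 25.1 CPM at 35 °C (median 18.7), with a log2 fold change of -0.89 ± 0.41 (SE). The 294 genes whose interval reached past 1.5-fold had a median standard deviation of 0.46 on the log2 scale against 0.15 in the other 8590, and a median level of 18.0 against 47.6 CPM. Intervals widen with the spread between birds and at low counts, so sorting by interval favours both of these differences.

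Some transcripts ranged over several orders of magnitude at both temperatures. ENSTGUG00000008939 ran from 0.0858 to 330.2 CPM at 27 °C (median 42.7) and from 0.197 to 354 CPM at 35 °C (median 38.3). The raw counts ran from 1 in bird T149 to 5014 in bird T159, both at 27 °C. ENSTGUG00000001661 ran from 0.0858 to 124 CPM at 27 °C (median 22.1) and from 0 to 158.8 CPM at 35 °C (median 18.8), and ordered the birds almost as ENSTGUG00000008939 did, with T147 and T159 highest in both. Neither passed the threshold between temperatures, with log2 fold changes of 0.33 ± 1.23 and 0.20 ± 1.18 (SE). The level in one tissue did not carry over to the other in every bird: T158 held ENSTGUG00000008939 at 0.545 CPM in the telencephalon and at 36.6 CPM in the testis. The next most spread gene was ENSTGUG00000008881, described above. After it came ENSTGUG00000002903, ENSTGUG00000010240 and ENSTGUG00000012373. These had medians of 25.5, 15.8 and 7.61 CPM at 27 °C and of 12.1, 16.1 and 13.6 CPM at 35 °C. T147 was the highest bird in 3 of the 6 most spread genes and in 11 of the 50 most spread. Such genes were few: the standard deviation of log2 CPM, averaged over both temperatures, was above 0.5 in 129 genes (1.45%) and above 1 in 14 (0.158%) of the 8884.

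**Figure D3:**
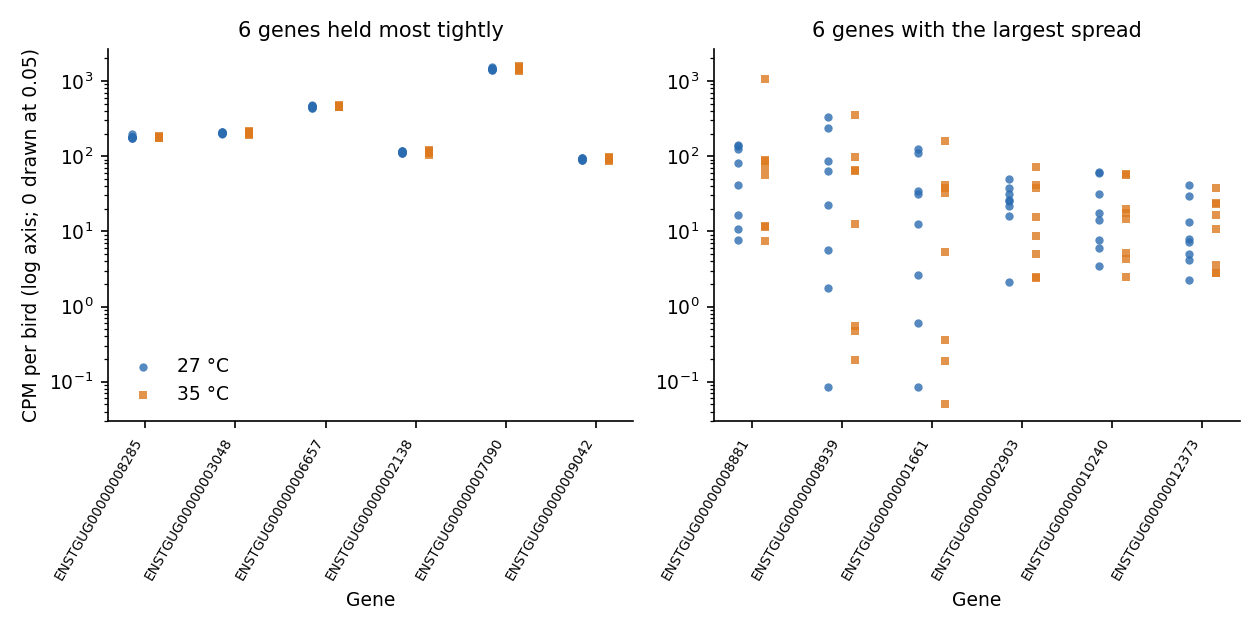
CPM of each bird (log axis, a value of 0 drawn at 0.05) for the 6 genes with the tightest intervals (left) and the 6 with the largest spread (right), birds at 27 °C as circles and at 35 °C as squares. On the left the birds of both temperatures coincide, as in ENSTGUG00000008285 from 172 to 194 CPM, while on the right ENSTGUG00000008939 runs from 0.0858 to 330.2 CPM at 27 °C and from 0.197 to 354 CPM at 35 °C.

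Over the whole profile, the temperatures differed no more than groups of these birds drawn without regard to temperature. The root mean square (RMS) difference between the group means over the 8884 genes was 0.097 on the log2 scale (1.07-fold). This was 0.919 times the median over all 12870 splits of the 16 birds into groups of 8, with an exact permutation p of 0.888. Pairs of birds differed by a mean RMS of 0.294 within 27 °C (28 pairs), 0.314 within 35 °C (28 pairs) and 0.301 between temperatures (64 pairs). The mean between temperatures thus lay between those within each. Single pairs reached 0.355 between temperatures, 0.329 within 27 °C and 0.340 within 35 °C.

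The birds at 27 °C resembled each other slightly more than those at 35 °C. The RMS deviation of a bird from the average of the 7 birds that shared its temperature was 0.223 ± 0.0106 log2 units at 27 °C, with a range of 0.209 to 0.237, and 0.238 ± 0.00928 at 35 °C, with a range of 0.225 to 0.253 (SD, n = 8 each). The mean was 1.07 times as large at 35 °C, with an exact two-sided permutation p of 0.0110 and 0.0221 adjusted over the 2 tests of the profile. The groups overlapped: each of the 8 birds at 35 °C lay above the 27 °C median, and 4 exceeded the highest bird at 27 °C. Each deviation uses the other birds of its group, so the 16 values are not independent. A different measure, the mean squared distance between pairs of birds within a group, was recomputed for every split. Its difference between the groups had an exact permutation p of 0.0197. Without bird T143, T145, T148 or T151, all at 27 °C, the exact permutation p was 0.0752, 0.0747, 0.0614 and 0.0617, and the call was lost in these 4 of 16 omissions. These 4 birds had the lowest deviations at 27 °C, from 0.209 in T145 to 0.219 in T151. Without T142, T149, T155 or T159, the other birds at 27 °C, the exact permutation p lay from 0.00932 to 0.0306. What lost the call was not tested. A group reduced to 7 birds gives larger deviations by its construction, and with a factor for group size, added after these values were seen, the exact permutation p lay from 0.00389 to 0.0357 in all 16. The difference also missed the threshold over genes of at least 30 CPM (exact permutation p = 0.0741) and over all 13254 genes (exact permutation p = 0.0527). The total counts were lower at 35 °C on average; with every library thinned to 10196645 counts the deviations were 0.227 ± 0.00939 and 0.240 ± 0.00812 (SD, n = 8 each; exact permutation p = 0.0152).

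**Figure D4:**
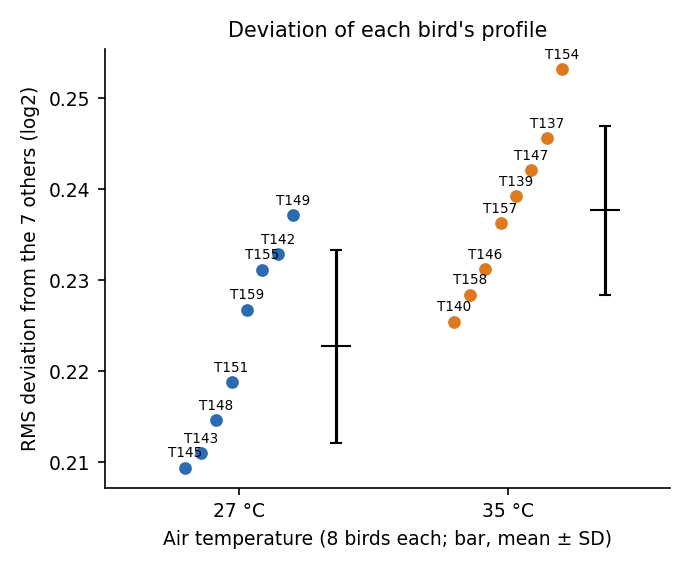
RMS deviation of each bird's profile from the average of the 7 other birds at its temperature (log2 units, 8884 genes), with the mean and SD of each group. Birds at 27 °C lie from 0.209 to 0.237 and birds at 35 °C from 0.225 to 0.253, with 4 birds at 35 °C above the highest at 27 °C.

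The birds at 43 °C, set beside them after the data were seen, had a deviation of 0.245 ± 0.0216 (SD, n = 8), from 0.220 to 0.279. Against 35 °C the exact permutation p was 0.426, and 27 against 43 °C gave an exact permutation p of 0.0179 (0.0268 adjusted over 3 comparisons).

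The difference in spread was small at each level of expression. The median standard deviation of log2 CPM between birds fell from 0.52 at 27 °C and 0.57 at 35 °C under 1 CPM to 0.20 and 0.21 from 10 to 30 CPM, and to 0.10 and 0.11 from 100 to 300 CPM. Counting error alone would give 0.37 and 0.38 under 1 CPM and 0.033 and 0.034 from 100 to 300 CPM. Over the genes of at least 10 CPM the medians were 0.14 at 27 °C and 0.15 at 35 °C, and the median ratio of the standard deviations was 0.926. The standard deviation was larger at 35 °C in 5141 of these 8884 genes (57.9%), and in 55.8% after thinning. Genes share birds and are not independent replicates. Tested level by level, the birds' deviations gave exact permutation p from 0.00948 (10 to 30 CPM) to 0.944 (300 CPM and over), and after adjustment over the 7 levels the lowest was 0.0664. At 300 CPM and over the measures differed. The median standard deviations were 0.0985 at 27 °C and 0.112 at 35 °C, with a median ratio of 0.861. Of these 467 genes, 63.6% had the larger standard deviation at 35 °C, while the mean RMS deviations were 0.156 at 27 °C and 0.158 at 35 °C.

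**Figure D5:**
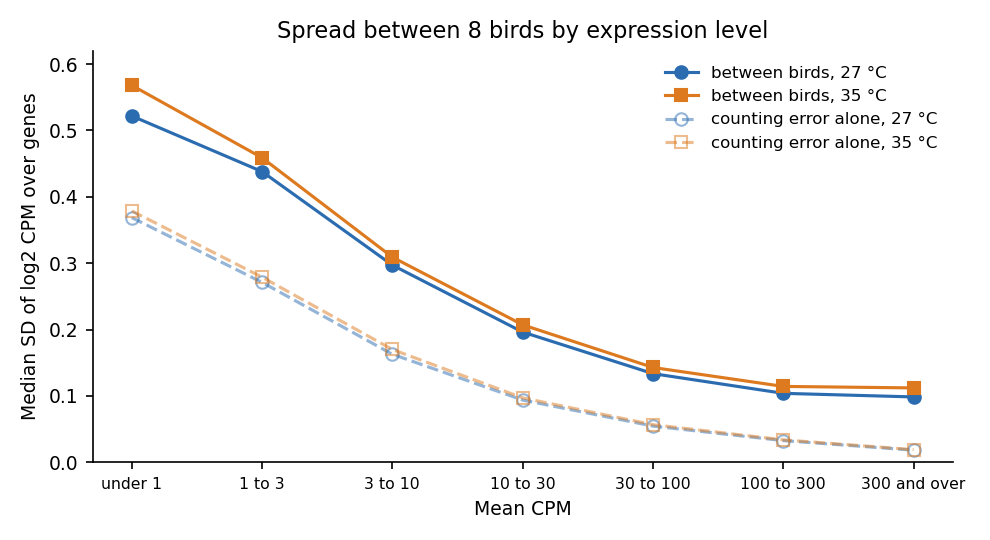
Median standard deviation of log2 CPM between the 8 birds of each temperature, by mean CPM, with the value that counting error alone would give (dashed). The line for 35 °C lies above that for 27 °C in each of the 7 levels, for example 0.57 against 0.52 under 1 CPM, and both stay above counting error.

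No single gene had a spread that differed past the threshold. A limma test on the absolute deviations called 0% of 13254 genes, with 0.147 as the smallest adjusted p. Before adjustment 997 genes (7.52%) had a p under 0.05, 625 (4.72%) with the larger spread at 35 °C and 372 (2.81%) with the larger spread at 27 °C. The share is not read against a nominal level, and the count of 0 does not show that the spreads were equal. Without T154, at 35 °C, 3 genes were called. Among the genes with the smallest p, ENSTGUG00000011910 ran from 50.5 to 53.3 CPM at 27 °C (median 52.0) and from 46.9 to 67.4 CPM at 35 °C (median 53.3). ENSTGUG00000011378 ran from 64.1 to 67.9 CPM at 27 °C (median 66.4) and from 46.6 to 73.3 CPM at 35 °C (median 60.5). In both the birds at 27 °C lay inside the range at 35 °C. The reverse was measured in ENSTGUG00000005053, from 27.9 to 39.1 CPM at 27 °C (median 31.3) and from 29.6 to 31.9 CPM at 35 °C (median 30.9), and in ENSTGUG00000007621, from 39.3 to 61.2 CPM at 27 °C (median 49.5) and from 44.7 to 49.1 CPM at 35 °C (median 46.4). In each of these genes the narrower group had a standard deviation of log2 CPM below that of counting error alone. At 27 °C it was 0.025 against 0.055 in ENSTGUG00000011910 and 0.030 against 0.049 in ENSTGUG00000011378. At 35 °C it was 0.031 against 0.074 in ENSTGUG00000005053 and 0.046 against 0.061 in ENSTGUG00000007621.

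Transcripts counted at one temperature alone had very low counts. Of the 18618 genes listed, 13912 had a count in all 16 libraries, 1772 in none and 2934 in some. Counts at 27 °C alone were found for 286 of these 2934 genes, in at most 4 birds and with a total of at most 7 counts. Counts at 35 °C alone were found for 342 of the 2934, in at most 6 birds and with a total of at most 8 counts. No gene was counted in all 8 birds of one temperature and in none of the other.

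Set beside it, the comparison of 43 with 35 °C in the same tissue called 1 gene (0.00754%) and had 1206 genes (9.1%) at an unadjusted p under 0.05. Its median absolute log2 fold change at 10 CPM and over was 0.067, and the interval lay within 1.5-fold for 95.9% of 8885 genes. It shares the 8 birds at 35 °C with the comparison of 27 °C. In the testis at 27 against 35 °C, 612 genes (4.33%) had a p under 0.05 before adjustment (520 without T142), the median absolute log2 fold change at 10 CPM and over was 0.10, and 83.1% of 8466 genes had an interval within 1.5-fold. The median distance from the estimate to the end of the interval was 0.28 there against 0.16 in the telencephalon. Differences between these comparisons were not tested.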

How the data were processed

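For the telencephalon the deposited table holds raw whole-number counts, 1 column per bird, to which no scaling had been applied. Per the labels' protocols, RNA was extracted with Trizol and sequenced after preparation with a strand-preserving kit for poly(A) RNA. Trimmomatic 0.36, HISAT2 2.1.0, featureCounts 1.6.4 and CASAVA are listed in the submitters' processing notes. Build, annotation and strand setting were not given in the sources used here, and genes that overlap, lie antisense or are near-identical could have received each other's reads. The deposited testis table holds other values of the same kind, whole-number counts in a paired-end and a single-end column per bird, which were summed to 1 replicate.

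Groups came from the labels, and a replicate is a separate bird. Counts were filtered with filterByExpr (minimum count 10, minimum total 15), given TMM factors and fitted over the 24 telencephalon libraries, with the robust quasi-likelihood F test of edgeR 4.0.16 in R 4.3.3 and the contrast of 27 minus 35 °C. Benjamini-Hochberg adjusted p under 0.05 counted as called. The F statistic gave the standard errors, and the 95% intervals used its residual plus prior degrees of freedom. Log2 CPM used a prior count of 2. The spread test used limma 3.58.1, and alternatives used DESeq2 1.42.0, limma voom, other scalings and filters, thinned counts and the omission of each bird. Profile tests were exact permutations over all splits of the 16 birds. The scripts were tested on simulated data. No library duplicated another (chi-square of any 2 libraries, divided by its degrees of freedom, at least 10.7). The common biological coefficient of variation was 16.4%.

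Named genes were the 8 with the smallest p in each direction, the 10 most abundant, the 6 with the tightest intervals and the 3 tightest in each level from 10 CPM up, the 6 with the largest fold change and the 6 with the largest spread at 10 CPM or more, the 5 with the smallest p of the spread test in each direction, and those of at least 10 CPM whose groups did not overlap. The comparison, rules and lists were chosen with earlier results of these data known. The lists of heat shock, cold-inducible, immediate early, clock and thyroid genes and of cell type markers need symbols. The RefSeq gene table at hand (assembly bTaeGut7.mat) gives no Ensembl identifiers, so none of the 18618 could be matched to it. These lists were therefore not run, and no sequence is shown.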

Additional observations from a re-analysis of the deposited data

Results flagged for a closer look

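In 13 of 130 groups of 8 birds, 1 bird stood apart from the other 7 by Dixon's criterion. For independent, normally distributed values, chance would flag about 1 in 20 groups, or 6.5. The gene values were CPM without a log and the groups share birds, so 6.5 is only a rough guide. Of the 13, 5 belong to genes named for their spread, in which a distant bird is part of the choice. ENSTGUG00000008354 and ENSTGUG00000017829 were named for their fold change, to which a distant bird can also add.

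At 27 °C, T148 was the highest bird in 3 of them. ENSTGUG00000018750 was at 15790 CPM in T148 and at 8748 to 11914 CPM in the others, ENSTGUG00000018759 at 12170 against 5891 to 8823 CPM, and ENSTGUG00000003311 at 39.0 against 31.2 to 33.8 CPM. In the tightly bounded ENSTGUG00000008285, T142 was at 194 CPM and the others at 173 to 182 CPM.

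At 35 °C, T147 was the highest bird in 4 genes. It held ENSTGUG00000008881 at 1055 CPM against 7.497 to 88.0 CPM, ENSTGUG00000008354 at 118.1 against 2.61 to 13.1 CPM, ENSTGUG00000008939 at 354 against 0.197 to 96.2 CPM and ENSTGUG00000001661 at 158.8 against 0 to 41.5 CPM. T137 was highest in ENSTGUG00000017829, at 73.3 CPM against 7.40 to 24.8 CPM, and lowest in ENSTGUG00000007049, at 0.171 CPM against 0.980 to 1.68 CPM. T139 was highest in ENSTGUG00000004015, at 30.2 CPM against 24.9 to 27.3 CPM, and in ENSTGUG00000015879, at 3.75 CPM against 3.06 to 3.35 CPM. T154 was highest in ENSTGUG00000003189, at 7.36 CPM against 2.85 to 4.69 CPM. What sets these birds apart was not tested.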

How the results depend on the processing

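No paired analysis was possible because each bird was kept at 1 temperature and the groups compared share no bird. No gene was called under any filter, scaling, tool or omission of a bird that was run. Without 1 bird, 409 to 502 genes lay at an unadjusted p under 0.05, 8543 to 8572 genes had an interval within 1.5-fold, the whole-profile shift was 0.097 to 0.11 (exact permutation p of 0.728 to 0.968), and the median ratio of standard deviations was 0.907 to 0.948. Values were compared for 61 named genes under 22 alternatives. Of 1335 values, 1333 kept their direction and side of the threshold, or moved by less than the spread between birds. The exceptions were ENSTGUG00000008881 and ENSTGUG00000008354, which reversed to 0.53 and 0.73 without T147. They lay at -1.53 to -1.15 and -0.99 to -0.58 without any other single bird. This tally had little room to fail and is weak evidence of stability. With no gene called in any run, the side of the threshold could not differ. Omitting 1 bird also generally moves a group mean by less than the spread between birds. The difference in deviation between 27 and 35 °C (-0.015 log2 units) was -0.013 over genes of at least 30 CPM and -0.018 over all genes, both above a p of 0.05, and -0.019 to -0.010 without 1 bird (exact permutation p of 0.00466 to 0.0752), or -0.017 to -0.012 with the factor for group size. That factor was added after the first values were seen. The squared distances between pairs of birds and the spread test on genes of at least 10 CPM were also added then. So were the median absolute deviation (exact permutation p = 0.0399) and the omission of the 5% most variable genes (exact permutation p = 0.0499). The cause of the lost calls was not tested. Genes called for unequal spread numbered 0 to 3 without 1 bird. At an unadjusted p under 0.05 there were 428 on genes of at least 30 CPM and 651 on genes of at least 10 CPM, where fewer genes were tested. The median share of the variance between birds that counting error alone would give was largest at low levels. It was 50.3% at 27 °C and 43.3% at 35 °C under 1 CPM, and 30.1% and 30.4% from 3 to 10 CPM. From 10 to 30 CPM it was 23.1% and 22.6%. What limits genes under 10 CPM was not tested.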
